A study of Mus musculus with 40 samples.

Results

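The genes of potassium channel subunits were taken as every gene symbol in the count tables made of Kcn, further letters and a closing number, which gave 92 of the 40213 symbols. They were grouped by the family letters of the symbol into 17 pore-forming subunits of the families Kcna to Kcnd, 10 electrically silent modifiers, 5 Kcnq genes, 8 Kcnh genes, 11 auxiliary subunits, 15 inward rectifiers, 14 two-pore leak channels, 5 genes of large-conductance calcium-activated (BK) channels, 4 of smaller-conductance calcium-activated channels and 3 genes of sodium- or pH-gated channels. After the filter on low counts, 78 of the 92 genes could be tested in midbrain and 76 in spinal cord libraries, where Kcnj4 and Kcnj5 were too low. The 14 genes tested in neither tissue were Kcna7, Kcna10, Kcne1, Kcne2, Kcne3, Kcnj1, Kcnj15, Kcnk7, Kcnk15, Kcnk16, Kcnk18, Kcnmb3, Kcnn4 and Kcnv2.

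Potassium channels let potassium leave or enter a cell along its gradient and thereby set the resting potential, end the action potential and space out firing. Voltage-gated channels open on depolarization, calcium-activated channels follow intracellular calcium, inward rectifiers and leak channels hold the resting potential, and in glia the inward rectifiers take up the potassium that active neurons release. Midbrain dopamine neurons are known for transient A-type currents and for inward rectifiers that are opened by G proteins and by ATP depletion, whereas myelinated axons, which are plentiful in the spinal cord, keep Kcna1 and Kcna2 channels beside their nodes.

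The libraries were made from the midbrain and the spinal cord of male C57BL/6N mice, which were obtained at an age of 8 weeks. The tissue was taken at the end of the experiment. There were 4 libraries in each of 5 groups per tissue and 40 libraries in all. Con mice received saline. All other groups received 4 intraperitoneal injections of 20 mg/kg MPTP, a toxin of dopamine neurons. MPTP-Veh mice then received saline at the GB34 acupoint, and MPTP-SU mice received 4 injections there of SUEHP, the preparation under study, which is used for pharmacopuncture. MPTP-SU+S mice also received 3 mg/kg of SR141714A, the CB1 antagonist as the labels spell it, and MPTP-SU+T mice 5 mg/kg of the PPARγ inhibitor T0070907. MPTP acts on the whole animal, and no label ties a midbrain library to a spinal cord library of the same mouse.

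A midbrain library held 11958200 to 16639823 counts, of which the 92 genes took 0.397 to 0.502%, and a spinal cord library 14642808 to 16615378 counts, of which they took 0.505 to 0.601%. Markers of dopamine neurons summed to 149 to 306 CPM (counts scaled to a common library size) in Con midbrain and 18.5 to 22 CPM in Con spinal cord, and markers of motor neurons to 9.64 to 21 and 147 to 172 CPM. The dopamine neuron markers summed to 122 to 332 CPM in MPTP-Veh midbrain, and 0 of 6 were called against Con. The midbrain library of MPTP-Veh replicate 4 stood apart, with 1.35% of its counts (95% Wilson interval 1.35 to 1.36%) from mitochondrially encoded genes against 9.92 to 17.5% in the other midbrain libraries and an oligodendrocyte marker sum of 35100 CPM against 9740 to 13700 CPM in the other Con, MPTP-Veh and MPTP-SU midbrain libraries. Values without it are given beside several of the results it moved, but not beside all of them.

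The part of the protein that makes a potassium channel is its selectivity filter, a short loop that reads glycine, tyrosine or phenylalanine or leucine, glycine. A search of the coding sequences in the reference annotation for threonine or serine, any residue and then that triplet found no match in 15 of the 92 genes, the 11 auxiliary voltage-gated subunits and the 4 accessory BK subunits, which shape channels made by other genes. It found 1 match in 61 genes and 2 in 16, which were Kcna6, Kcnh2 and all 14 two-pore channels. Only the protein of two-pore channels carries a pair of pore loops. In Kcna6 and Kcnh2 the filter is the match at codons 422 and 626, and that at codons 240 and 601 fits the search pattern alone. The filters of some of the genes on which the results turn are shown, chosen to cover several families, as 45 coding bases, 5′ to 3′ on the coding strand, with the 15 bases of the matching codons in capitals. They come from the GRCm38 reference and its GENCODE M21 annotation, whereas the submitters' processing notes name GRCm39.
Kcna1: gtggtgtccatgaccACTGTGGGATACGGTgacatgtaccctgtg
Kcnf1: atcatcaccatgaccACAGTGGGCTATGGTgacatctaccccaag
Kcnh3: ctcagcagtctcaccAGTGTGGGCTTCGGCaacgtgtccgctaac
Kcnj14: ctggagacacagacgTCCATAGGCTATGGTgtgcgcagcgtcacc
Kcnj9: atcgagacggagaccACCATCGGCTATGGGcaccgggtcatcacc
Kcnk1, first pore: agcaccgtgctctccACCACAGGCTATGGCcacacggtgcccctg
Kcnk1, second pore: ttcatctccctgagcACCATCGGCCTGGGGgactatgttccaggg
The Kcna1 stretch lies in its only exon on the minus strand at chr6:126642213-126642257. The Kcnf1 stretch lies in its only exon on the minus strand at chr12:17175046-17175090, so a silent modifier keeps a complete filter although it forms no working channel alone. Kcnh3 carries a phenylalanine codon where most genes shown carry tyrosine, in exon 8 of 15 on the plus strand at chr15:99232914-99232958. The Kcnj14 stretch, which opens with a serine codon, lies in exon 2 of 3 at chr7:45819618-45819662 and that of Kcnj9 in exon 3 of 4 at chr1:172326169-172326213, both on the minus strand. The second pore of Kcnk1 has leucine in place of tyrosine and lies in exon 2 of 3 on the plus strand at chr8:126025314-126025358, while its first pore spans an exon boundary. All of these are coding exons.

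Levels of different genes were compared as CPM per kilobase of the longest annotated transcript, averaged over the 20 libraries of a tissue. In the midbrain the highest were Kcnip4, an auxiliary subunit of A-type channels, at 85.9 ± 30.1 (SD, n = 20) CPM per kilobase, the glial inward rectifier Kcnj10 at 84.6 ± 8.83 and the auxiliary subunit Kcnab2 at 74.5 ± 24.7. Kcna1 stood at 48.4 ± 8.87 CPM per kilobase. The ranges of these 4 genes over midbrain libraries overlapped their neighbours in this order. The group means of Kcnip4 differed: Con stood at 161 CPM, MPTP-Veh was lowest with 134, and MPTP-SU was highest with 278. The MPTP-Veh mean includes replicate 4, the lowest midbrain library at 45.4 CPM, and the mean without it is not given here. The first place of Kcnip4 thus holds for the 5 groups pooled, and the order within Con alone was not computed. In the spinal cord Kcnj10 was the highest at 184 ± 8.55 CPM per kilobase, and Kcna1 stood at 117 ± 8.08, Kcnab2 at 91.0 ± 5.40 and Kcnk1, a two-pore channel, at 38.9 ± 1.68. There the lowest Kcnj10 library, at 165 CPM per kilobase, lay above the highest of Kcna1 at 129, and the lowest of Kcnab2 at 82.2 above the highest of Kcnk1 at 42.5, while Kcna1 and Kcnab2 overlapped. At the other end, Kcnk18, a leak channel of sensory neurons, did not exceed 0.0269 CPM per kilobase in any library.

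**Figure D1:**
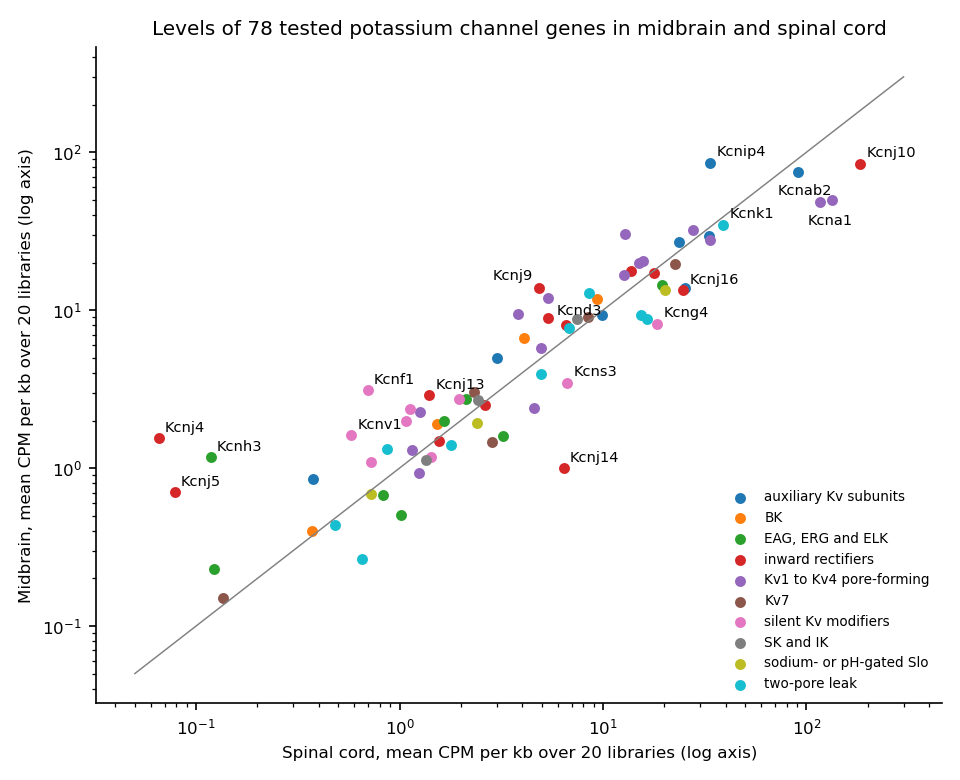
Mean level of each of the 78 tested genes in the spinal cord (x axis) and the midbrain (y axis), in CPM per kilobase over 20 libraries each on log axes, coloured by family, with a line of equal level. Kcnj10 lies at 184 in the spinal cord and 84.6 in the midbrain, and Kcnj4 and Kcnh3 lie far above the line.

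The comparison of Con midbrain with Con spinal cord gives the difference between the tissues without toxin or treatment. Of 78 tested genes, 21 were called higher in the midbrain and 18 lower, where a call needed an adjusted p-value below 0.05 in edgeR's quasi-likelihood test and a fold change above 1.5. These are 26.9% and 23.1% of the tested potassium channel genes, and over all 17426 tested genes 7.39% were called higher and 9.02% lower. Library values were separated between the tissues for 48 of the 78 genes, 61.5%, and for 37.3% of all tested genes. The median log2 fold change was 0.098 over the potassium channel genes and 0.019 over all genes. Within a bulk tissue, fewer cells of a type and less RNA per cell cannot be told apart.

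The glial inward rectifiers were lower in the midbrain. Kcnj10, the main potassium uptake channel of astrocytes and oligodendrocytes, measured 458, 391, 454 and 434 CPM in Con midbrain and 892, 1060, 981 and 940 CPM in Con spinal cord. The spinal cord libraries held 2.23-fold more, and the groups did not overlap (log2 fold change −1.16, SE 0.0879, adjusted p = 9.29e-13). Its partner Kcnj16, which joins it in mixed channels, measured 53.5 to 57.5 CPM in the midbrain and 86 to 96.5 CPM in the spinal cord (−0.73, SE 0.129, adjusted p = 3.11e-05). Both genes were thus higher in each Con spinal cord library than in any Con midbrain library. Of 6 astrocyte markers, 2 were called lower in Con midbrain and 1 higher, with sums of 2480 to 2720 CPM against 3640 to 4720 CPM, and of 6 oligodendrocyte markers 2 were lower, with sums of 9740 to 12000 against 17900 to 20300 CPM. None of these markers was at 0, and their part in the result was not tested. The vascular channel Kcnj8 did not pass the test, at 3.40 ± 0.0754 and 4.03 ± 0.206 CPM (SD, n = 4 each).

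Among the neuronal inward rectifiers, Kcnj14 measured 1.98, 2.16, 2.22 and 3.43 CPM in the midbrain and 18.7, 17.3, 18.2 and 18.9 CPM in the spinal cord. The difference was 7.43-fold with no overlap (−2.89, SE 0.220, adjusted p = 9.66e-13), the largest among the genes lower in the midbrain. Of 5 motor neuron markers, 4 were called lower in the midbrain, where Mnx1 was at 0 in every Con library, and their part in the result was not tested. The subunits of G protein-gated channels, which neurotransmitter receptors open, went the other way. Kcnj9 measured 61.4, 62.0, 50.7 and 41.8 CPM in the midbrain and 20.3, 15.7, 20.1 and 23.4 CPM in the spinal cord (2.71-fold, adjusted p = 2.02e-06), and Kcnj6, the form known from dopamine neurons, 78.8 ± 11.8 and 49.5 ± 5.6 CPM (1.59-fold, adjusted p = 1.28e-05). Kcnj5 was 6.70-fold higher at a low level of 2.29 ± 0.780 CPM. Their common partner Kcnj3 measured 91.7 ± 12.8 and 93.5 ± 7.69 CPM and did not pass the test (0.926), and Kcnj11, which forms ATP-sensitive channels, measured 24.2 ± 2.00 and 22.3 ± 2.28 CPM (0.626). All of these values are CPM of a gene in 4 libraries.

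The largest differences in favour of the midbrain were Kcnj4 and Kcnh3, channels best known from forebrain neurons. Kcnj4, a strong inward rectifier, measured 10.5, 11.4, 4.12 and 5.27 CPM in Con midbrain and at most 0.240 CPM in Con spinal cord (42.9-fold, adjusted p = 1.64e-10). Kcnh3, a slow voltage-gated channel, measured 16.9, 13.1, 5.26 and 8.71 CPM and at most 0.452 CPM (35.0-fold, adjusted p = 4.93e-09). In both genes replicates 1 and 2 of Con midbrain were the highest. Markers of cortex and hippocampus summed to 128, 140, 30.1 and 53.1 CPM in the same 4 libraries and to 12.7 to 14.4 CPM in Con spinal cord, where Emx1 was at 0, and 4 of 4 tested markers were called higher in the midbrain. Kcnj13, known from choroid plexus epithelium, measured 6.71, 17.7, 4.25 and 11 CPM against 0.659 to 1.61 CPM (8.97-fold, adjusted p = 6.21e-06). Choroid plexus markers summed to 35.3, 1250, 91.7 and 567 CPM in Con midbrain, highest in the same replicates 2 and 4, and to 6.99 to 9.17 CPM in Con spinal cord, where Otx2 was at 0. All 5 of these markers were called higher in the midbrain. Kcne2, an auxiliary subunit of the same epithelium that was too low to test, ranged from 0.255 to 6.11 CPM in Con midbrain. The part of these tissues in the results was not tested.

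As the mean tissue difference over all 5 groups, Kcnj4 remained at 4.23 on the log2 scale and Kcnh3 at 2.99, against 5.42 and 5.13 in Con alone, while Kcnj13 stood at 0.77 against 3.16 and Kcnv1 at 1.36 against 2.59. Kcng1, Kcnip2 and Kcnj6 stayed positive over all 5 groups, at 0.35, 0.55 and 0.37, but below the fold threshold. For these 7 genes the difference in Con exceeded that over all groups.

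The pore-forming voltage-gated subunits divided by family, with 3 of 15 tested genes higher in the midbrain and 3 lower. Kcna1, the axonal channel that dampens repetitive firing, measured 182, 185, 157 and 187 CPM in Con midbrain and 398, 504, 449 and 425 CPM in Con spinal cord (2.50-fold lower in the midbrain, adjusted p = 1.25e-09). The highest midbrain library lay below the lowest spinal cord library. Kcna2, which assembles with Kcna1, differed in the same direction but by less than the fold threshold, at 270 ± 25 and 382 ± 20.3 CPM (1.41-fold, adjusted p = 0.00867). The A-type channel Kcnd1 was 1.78-fold lower in the midbrain (adjusted p = 4.51e-05). Its relative Kcnd3, the A-type channel of many slowly firing neurons, measured 83.5, 82.4, 80.4 and 86.8 CPM in the midbrain and 29.9, 38.0, 35.3 and 37.4 CPM in the spinal cord (2.37-fold higher, adjusted p = 6.56e-09). The other family member, Kcnd2, did not pass the test, at 87.9 ± 7.66 and 80.0 ± 10.5 CPM (adjusted p = 0.602). Kcna4 and Kcnc2 were the other 2 called higher, at 1.93-fold and 1.70-fold, and Kcnc1, a channel of fast-firing neurons, did not pass the test (adjusted p = 0.272).

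**Figure D2:**
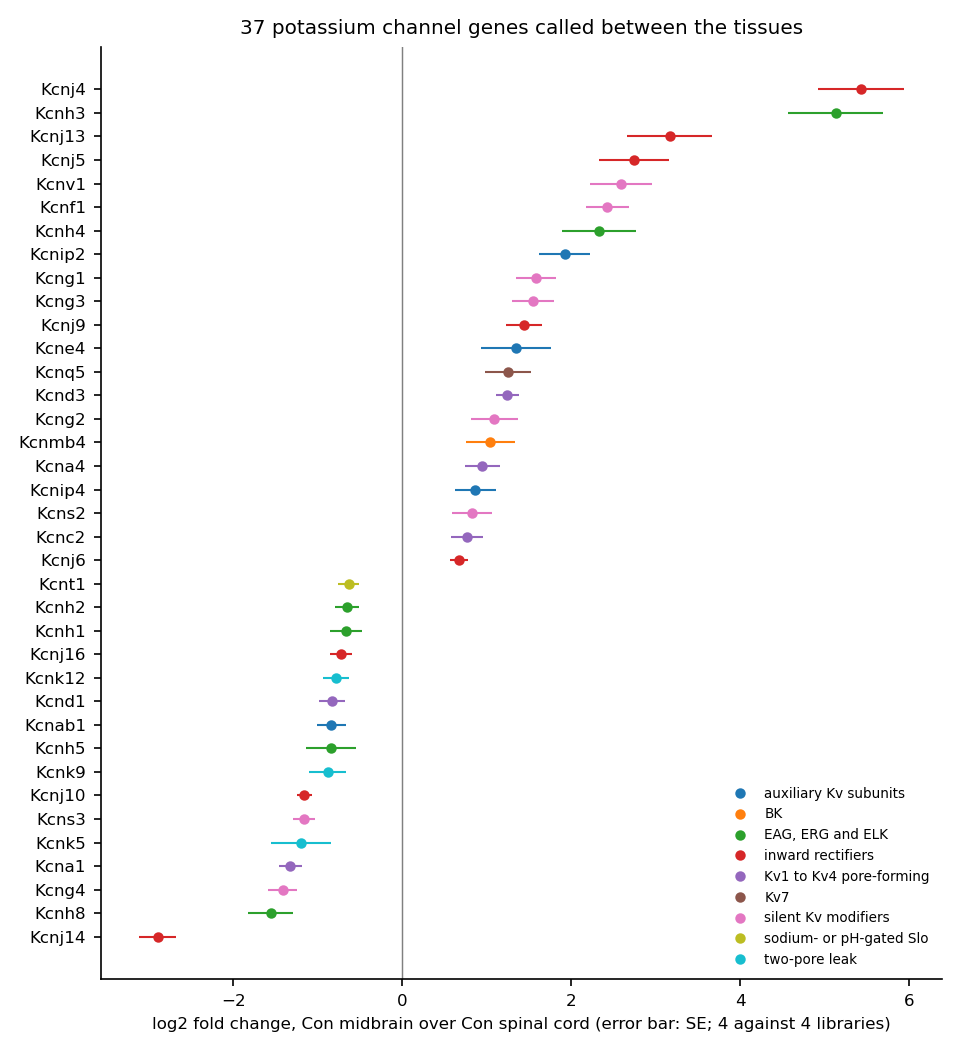
Log2 fold change of Con midbrain over Con spinal cord (x axis) for 37 of the 39 called genes (y axis), with SE as error bars and colour by family. The genes run from Kcnj14 at −2.89 to Kcnj4 at 5.42.

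The silent modifiers, which form no working channel alone and tune Kcnb subunits, had the highest share of calls among the larger families, with 6 of 9 tested genes higher in the midbrain and 2 lower. The median of the family in Con was 1.09 on the log2 scale, against 0.019 over all genes. Con had the highest midbrain group mean for Kcnf1, Kcng1, Kcng2, Kcng3 and Kcnv1, though not for Kcng4, Kcns1, Kcns2 and Kcns3. Over all 5 groups the mean log2 tissue difference was 2.10 for Kcnf1, 1.05 for Kcng3, 1.36 for Kcnv1 and 0.35 for Kcng1. In Con, Kcnf1 measured 23.8, 22.2, 18.6 and 14.9 CPM in the midbrain and 3.01, 3.54, 4.15 and 4.01 CPM in the spinal cord (5.38-fold, adjusted p = 1.35e-09). Kcnv1 was 6.02-fold, Kcng1 3.00-fold and Kcng3 2.92-fold higher. Kcng1 reached 35.1 CPM in Con midbrain replicate 2 and 11.9 to 22.1 CPM in the other Con midbrain libraries, so its spread was wide. Going the other way, Kcns3 measured 9.26 to 9.84 CPM in the midbrain and 18.8 to 24.4 CPM in the spinal cord (2.24-fold lower, adjusted p = 1.16e-08), and Kcng4 21.8 to 32.7 CPM and 66.7 to 72.5 CPM (2.66-fold lower, adjusted p = 3.93e-08). The pain-linked modifier Kcns1 did not pass the test, at 3.64 ± 1.21 and 3.79 ± 0.287 CPM (0.898).

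Of 8 tested auxiliary subunits, 3 were higher in the midbrain and 1 lower. Kcnip2 and Kcnip4, calcium-binding subunits of A-type channels, were 3.79-fold and 1.82-fold higher, and Kcnip2 ranged from 18.4 to 60.7 CPM among the Con midbrain libraries. Kcne4, an inhibitory subunit, was 2.55-fold higher at 2.12 ± 0.825 CPM. Kcnab1, which gives axonal channels rapid inactivation, was 1.79-fold lower, at 59.7 ± 10.6 and 107 ± 11.3 CPM (adjusted p = 0.000185). The abundant Kcnab2 measured 288 ± 29.3 and 361 ± 26.4 CPM and did not pass the test (adjusted p = 0.164), and Kcnip3 differed by less than the fold threshold, at 1.28-fold.

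The leak channels moved in 1 direction where they were called. No two-pore gene of 10 was called higher in the midbrain and 3 were lower: Kcnk9, an acid-sensitive leak channel, at 94.5 ± 18.9 and 174 ± 16.0 CPM (1.84-fold, adjusted p = 0.00207), Kcnk12 at 18.2 ± 1.96 and 31.4 ± 2.75 CPM (1.72-fold), and Kcnk5 at 1.03 ± 0.221 and 2.36 ± 0.652 CPM (2.30-fold). Kcnk2, a stretch- and heat-sensitive leak channel, differed by less than the fold threshold at 44.4 ± 7.56 and 30.5 ± 1.23 CPM. Among the Kcnh genes, Kcnh1, Kcnh2, Kcnh5 and Kcnh8 were lower in the midbrain and Kcnh3 and Kcnh4 higher. The mean of Kcnh4 was 1.86 CPM in Con midbrain and 0.578 to 0.78 CPM in the other midbrain groups. Kcnh8 was the largest of the lower ones, at 2.94-fold, and Kcnh2, the channel known for its role in cardiac repolarization, was 1.57-fold lower at 52.8 ± 5.72 CPM.

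Of the Kcnq genes, which carry the subthreshold M current, Kcnq5 was 2.38-fold higher in Con midbrain, at 34.3 ± 14.8 and 14.4 ± 2.66 CPM. In the other midbrain groups its mean was 15.1 to 19 CPM, and over all spinal cord groups 14.4 to 17.9 CPM. The large difference was thus that of Con. Kcnq3 measured 101 ± 18.9 and 96.6 ± 13.7 CPM and did not pass the test. The accessory BK subunit Kcnmb4 was 2.06-fold higher, at 13.1 ± 3.07 and 6.36 ± 0.660 CPM, while the BK pore Kcnma1 differed by 1.32-fold. Kcnt1, a sodium-activated channel, was 1.55-fold lower (adjusted p = 0.00016), and of the 3 tested calcium-activated SK genes none was called. Kcnn3, the SK channel known from dopamine neurons, measured 8.54 ± 1.67 and 11.8 ± 2.01 CPM.

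Some genes separated the tissues whatever the group. Over all 40 libraries, 10 genes were lower in every midbrain library than in every spinal cord library (among them Kcna1, Kcng4, Kcnh1, Kcnj10, Kcnj14, Kcnj16, Kcnk12 and Kcns3), and 5 were higher (Kcnf1, Kcnh3, Kcnj4, Kcnj5 and Kcnj9). Kcnj10 ran from 322 to 556 CPM in the midbrain and from 892 to 1060 CPM in the spinal cord. Kcnj9 ran from 34.3 to 89.5 CPM and from 15.7 to 23.4 CPM. The remaining 63 genes overlapped in at least 1 pair of libraries. The matching shares over all tested genes were not computed, so whether these counts are particular to potassium channel genes cannot be told.

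**Figure D3:**
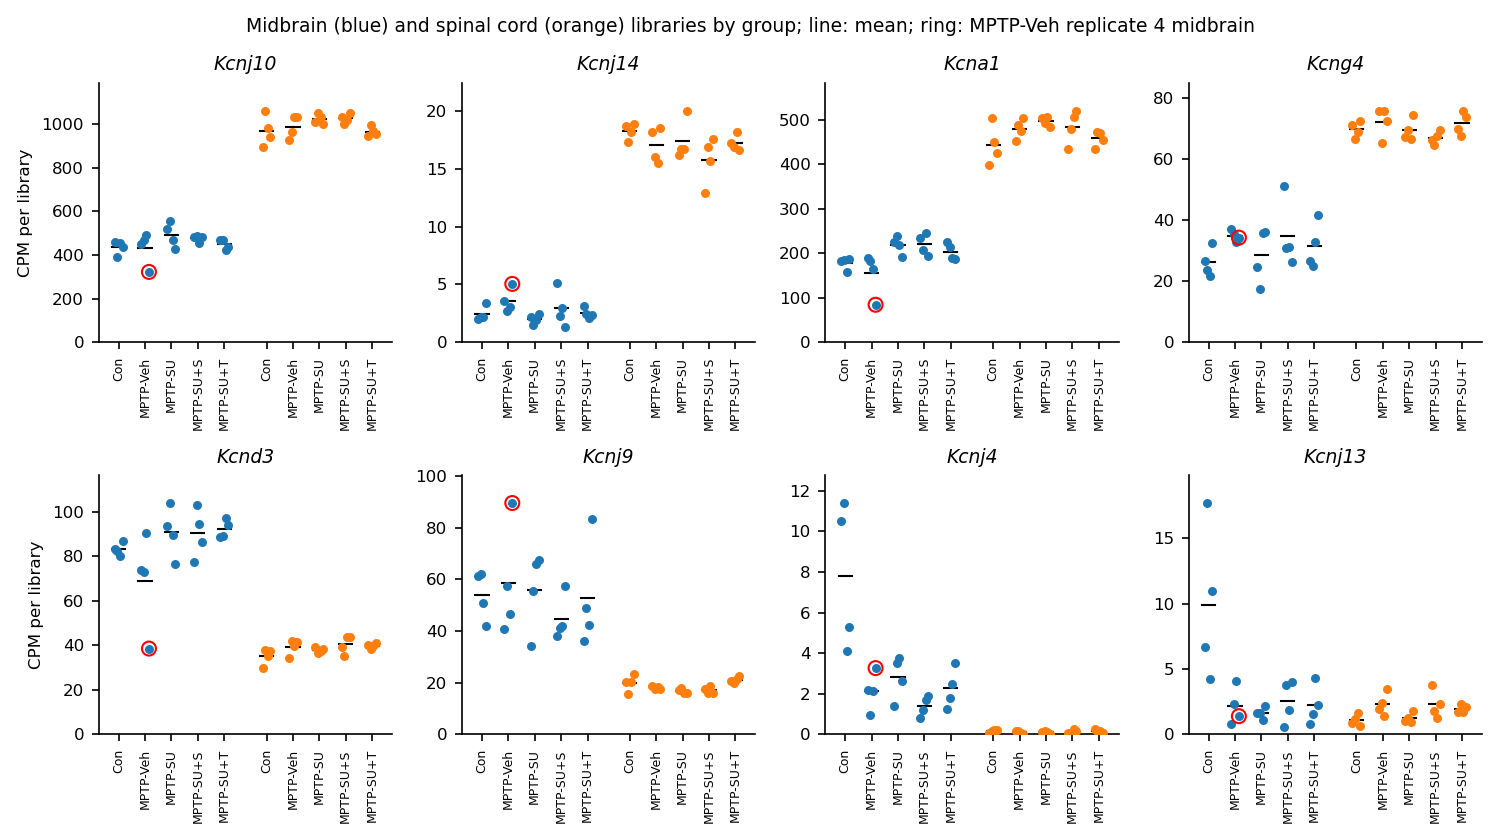
CPM of 8 genes in each library (y axes, starting at 0) by group (x axis), midbrain in blue and spinal cord in orange, with the group mean as a line and the midbrain library of MPTP-Veh replicate 4 ringed. Kcnj10 stays between 322 and 556 in the midbrain, and Kcnj4 and Kcnj13 are highest in Con midbrain.

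The genes whose products bind these channels were read from a list of 24 partners, of which 22 were tested. In Con midbrain against Con spinal cord 3 were higher and 3 lower. The scaffold Dlg4, the pacemaker channel Hcn3 and the BK partner Lrrc38 were higher, at 0.73, 1.25 and 0.96 on the log2 scale. Adam23 and Cntn2, which belong to the axonal complexes of Kcna channels, and Abcc9, the vascular partner of Kcnj8, were lower, at −1.15, −0.93 and −0.74.

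MPTP-Veh against Con asks what the toxin changed. In the midbrain 0 of 78 genes were called by edgeR, and over all 16629 tested genes 0.018% were called, all of them lower. At an unadjusted p below 0.05 there were 24 potassium channel genes, 30.8%, against 23.7% of all genes. DESeq2 called 10, against 2.6% of all genes, and limma-voom 0. Library values were separated for 13 of 78 genes, 16.7%, and for 12.4% of all genes. The smallest p-values belonged to Kcnj4, Kcnh3 and Kcnf1, all with lower values in MPTP-Veh. Kcnj4 measured 10.5, 11.4, 4.12 and 5.27 CPM in Con and 2.18, 0.984, 2.12 and 3.27 CPM in MPTP-Veh (−1.89, SE 0.415, adjusted p = 0.118). Kcnh3 went from 11 ± 5.08 to 2.72 ± 1.18 CPM (−2.01, adjusted p = 0.13) and Kcnf1 from 19.9 ± 3.96 to 8.97 ± 2.40 CPM (−1.13, adjusted p = 0.13). The 2 groups of these genes did not overlap. In the same libraries the cortex and hippocampus markers summed to 30.1 to 140 CPM in Con and 14.4 to 29.9 CPM in MPTP-Veh, with 0 of 4 tested markers called and none at 0, and their part in these values was not tested. Leaving out single libraries gave 0 to 14 called genes. The highest count, 14 genes, came without MPTP-Veh replicate 3 and included Kcnj4, Kcnh3 and Kcnf1 (adjusted p = 0.0432 each). In that setting 6.47% of all genes were called.

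The channels tied to dopamine neurons gave no call in this comparison. Kcnj6 measured 69.2, 95.9, 73.9 and 76.3 CPM in Con and 59.0, 58.5, 69.8 and 38.2 CPM in MPTP-Veh, the last of these being replicate 4. Kcnd3 measured 80.4 to 86.8 CPM in Con and 73.8, 73.2, 90.6 and 38.6 CPM in MPTP-Veh. In both genes the groups overlapped, and replicate 4 of MPTP-Veh was the lowest library.

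MPTP-SU against MPTP-Veh asks what the extract changed after the toxin, and in the midbrain it gave the only potassium channel genes called between groups within a tissue. Of 78 genes, 10 were called higher and 2 lower. These are 12.8% and 2.56%, and over all 16629 genes 4.35% were called higher and 9.1% lower. Library values were separated for 16 genes, 20.5%, and for 21.8% of all genes, so that by this measure the share was near that of all genes. The median log2 fold change was 0.187 over the potassium channel genes and 0.001 over all genes.

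The genes that were higher came from 6 families. Kcnd2, the main dendritic A-type channel, measured 90.2, 92.8, 86.8 and 31.8 CPM in MPTP-Veh, whereas MPTP-SU gave 128, 158, 126 and 132 CPM (1.80-fold, log2 0.85, SE 0.227, adjusted p = 0.0205). Its calcium-binding subunit Kcnip4 measured 159, 183, 148 and 45.4 CPM and 228, 340, 246 and 299 CPM (2.07-fold, adjusted p = 0.0277). Kcna4, an A-type channel of axons, measured 38.8, 42.4, 36.1 and 16.5 CPM and 52.8, 70.3, 57.5 and 59.9 CPM (1.79-fold, adjusted p = 0.0307). In each of these genes all MPTP-SU libraries were above all MPTP-Veh libraries, and replicate 4 of MPTP-Veh was the lowest by a wide margin. Without it, the log2 fold changes were 0.60 for Kcnd2 (adjusted p = 0.0041), 0.77 for Kcnip4 (0.0222) and 0.62 for Kcna4 (0.0512), so that the first 2 kept their calls. Kcnab1, which confers rapid inactivation, rose 1.69-fold, from 41.5 ± 13.8 to 70.5 ± 13.3 CPM, and lay at 0.55 on the log2 scale without that library, below the fold threshold.

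Kcnc2, a channel of fast-firing interneurons, measured 112, 137, 118 and 58.0 CPM in MPTP-Veh, whereas MPTP-SU gave 157, 232, 233 and 196 CPM (1.92-fold, adjusted p = 0.0214). The sodium-gated channel Kcnt2 measured 8.09, 7.54, 9.25 and 2.80 CPM and 14.9, 15.3, 9.98 and 12.1 CPM (1.86-fold, adjusted p = 0.0264). Both kept their calls without MPTP-Veh replicate 4, at 0.74 and 0.65 on the log2 scale. The M-current subunit Kcnq3 rose from 79.1 ± 20.6 to 134 ± 24.4 CPM (1.69-fold, adjusted p = 0.0325) and Kcnn3 from 6.49 ± 2.30 to 11.6 ± 1.29 CPM (1.77-fold, adjusted p = 0.0322). The silent modifier Kcnf1 rose from 8.97 ± 2.40 to 18.3 ± 4.88 CPM (2.03-fold, adjusted p = 0.0252) and Kcne4 from 1.05 ± 0.303 to 3.43 ± 1.72 CPM (3.20-fold, adjusted p = 0.0326). Without that library these 4 genes had adjusted p-values of 0.0502 to 0.0737, while their log2 fold changes stayed above the fold threshold, at 0.60 for Kcnq3, 0.61 for Kcnn3, 0.91 for Kcnf1 and 1.53 for Kcne4.

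Both genes that were lower lost their calls without the same library. One of them, Kcnk3, an acid-sensitive leak channel, measured 32.7, 31.5, 28.2 and 112 CPM in MPTP-Veh, whereas MPTP-SU gave 23.5, 19.1, 26.0 and 27.3 CPM (2.14-fold lower, adjusted p = 0.0275), and without replicate 4 the log2 fold change was −0.36 (adjusted p = 0.0692). In all, 4 genes were called without that library, all of them higher. Without MPTP-SU replicate 2 there was 1, without MPTP-SU replicate 3 there were 4, and with the 8 libraries of the comparison fitted alone there were 0, with an adjusted p of 0.223 for 11 of the 12 genes and 0.231 for Kcnk3. The log2 fold changes barely moved in that fit, from 0.75 for Kcnq3 and Kcnab1 to 1.67 for Kcne4 among the 10 higher genes, and −1.12 for Kcnk3. The shares of all genes called in that fit and without single libraries are not given here, so these counts cannot be set against them.

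**Figure D4:**
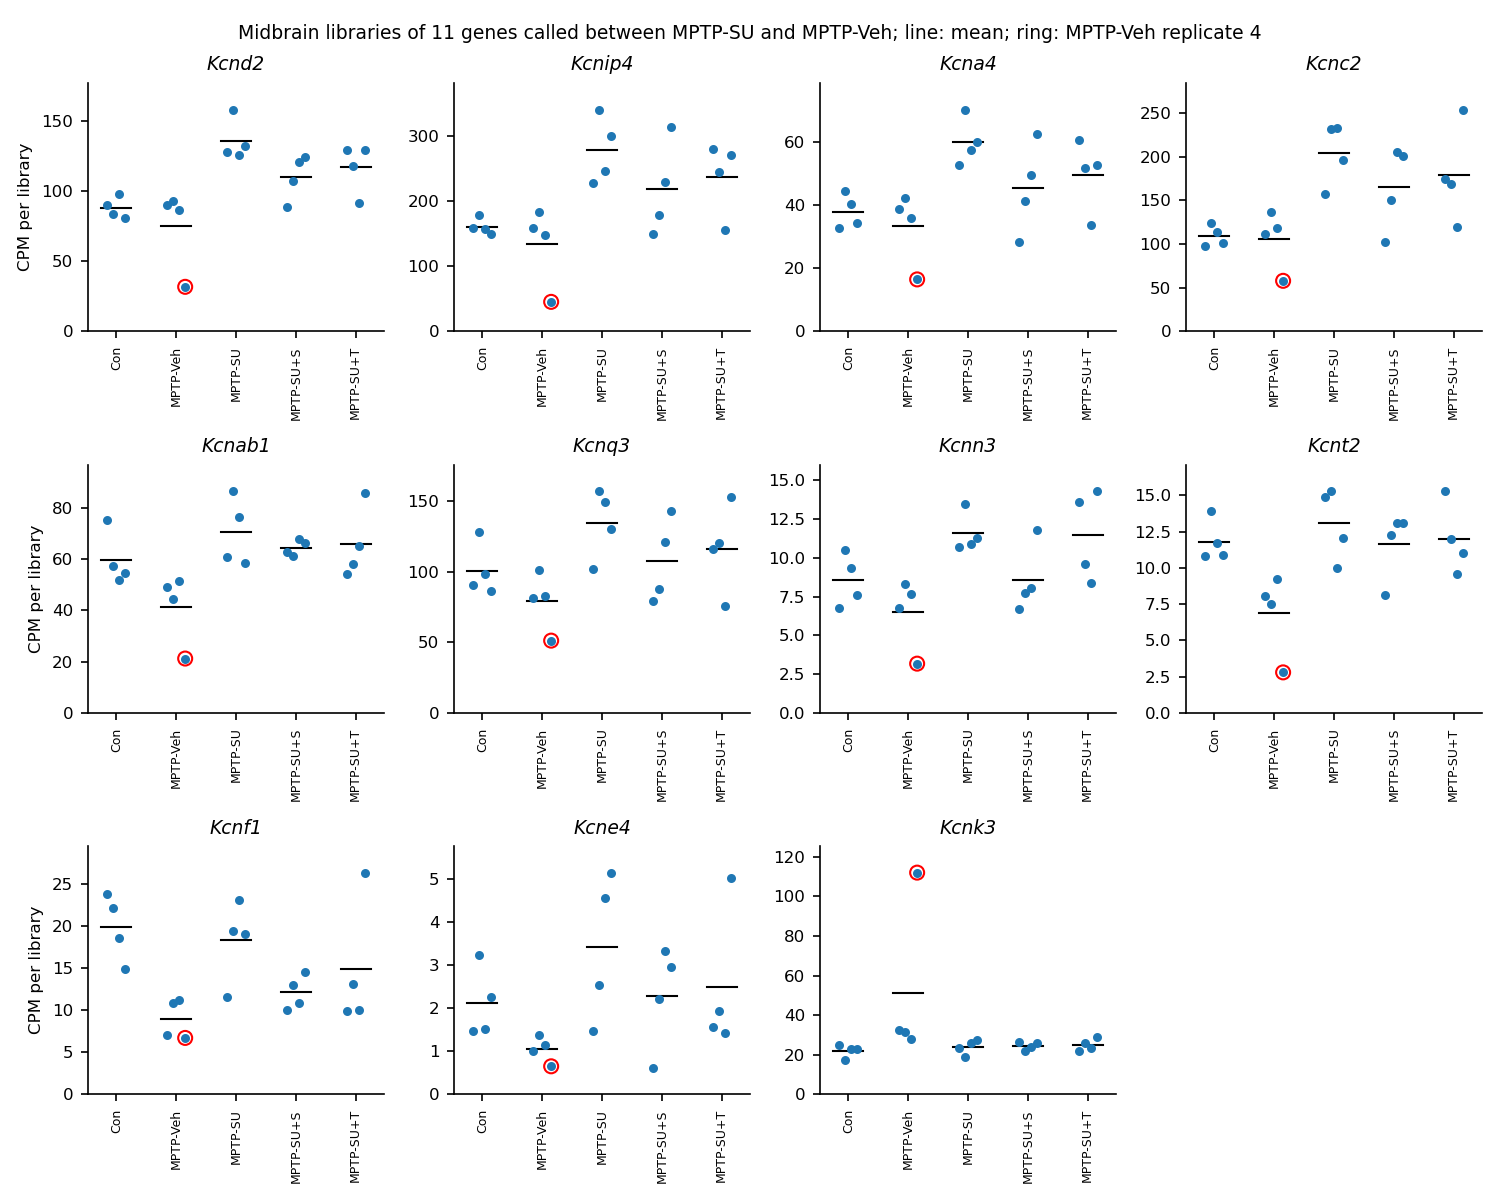
CPM in each midbrain library (y axes, starting at 0) by group (x axis) for 11 of the 12 genes called between MPTP-SU and MPTP-Veh, with group means as lines and MPTP-Veh replicate 4 ringed. In Kcnk3 the ringed library lies at 112 and the other MPTP-Veh libraries at 28.2 to 32.7.

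Other genes and markers moved in the same libraries. Thalamus markers summed to 353, 707, 379 and 199 CPM in MPTP-Veh libraries and to 466, 1100, 1230 and 1090 CPM in MPTP-SU libraries, with 1 of 5 called higher and none at 0. Neuron markers summed to 4790 to 5690 and 4160 to 4970 CPM with 2 of 6 called lower, astrocyte markers to 1840 to 2250 and 2290 to 2760 CPM with 2 of 6 lower, and oligodendrocyte markers to 11100 to 35100 and 9910 to 12600 CPM with 1 of 6 lower. Microglia markers summed to 124 to 238 and 133 to 156 CPM with Aif1 and Cx3cr1 called lower (−1.35 and −1.02), and motor neuron markers to 6.95 to 25.2 and 7.47 to 19.4 CPM with Isl1 called higher (2.67) and 1 marker at 0. Hypothalamus markers summed to 657 CPM in MPTP-Veh replicate 1, 4.35 to 8.97 CPM in the other MPTP-Veh libraries and 4.64 to 37.2 CPM in MPTP-SU, with Pomc called lower (−7.45). Of these 10 called markers, only Pomc was called without MPTP-Veh replicate 4. Their part in the result was not tested. Of the 22 tested partner genes, Dpp10, an accessory partner of A-type channels, and Lrrc55, a BK partner, were called higher, at 0.77 and 1.10 on the log2 scale. Neither was called without MPTP-Veh replicate 4, a setting chosen for them after the data were seen, at 0.54 (adjusted p = 0.0152) and 0.83 (0.0706).

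Other genes gave no call. Kcnab3 stood at −0.43 on the log2 scale with an adjusted p of 0.0156, short of the fold threshold. Kcnj3 measured 70.0 ± 26.2 CPM in MPTP-Veh, whereas MPTP-SU gave 107 ± 21.8 CPM (adjusted p = 0.0639). None of the 13 tested inward rectifiers and none of the 8 Kcnh genes was called.

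MPTP-SU+S and MPTP-SU+T against MPTP-SU ask what the antagonists changed, and in the midbrain 0 of 78 genes were called in either, nor was any other of the 16629 genes. At an unadjusted p below 0.05 there were 4 potassium channel genes with the CB1 antagonist, 5.13% against 1.65% of all genes, and 0 with the PPARγ inhibitor against 1.7% of all genes, and DESeq2 and limma-voom called 0 in both. With the CB1 antagonist the smallest p-values were those of Kcnh5, from 4.02 ± 0.785 to 2.49 ± 0.284 CPM (−0.69, SE 0.284), Kcnj4 (−1) and Kcnma1 (−0.35). With the PPARγ inhibitor they were those of Kcnh5 (−0.55), Kcnh6 (−0.29) and Kcnk12 (−0.23), and the adjusted p was 1 for all 6. The 2 comparisons share the MPTP-SU libraries. Kcnd2 measured 88.8, 107, 121 and 124 CPM in MPTP-SU+S and 129, 118, 91.4 and 129 CPM in MPTP-SU+T, and the lowest MPTP-SU library lay at 126 CPM. All MPTP-SU+S libraries were below it and the MPTP-SU+T libraries overlapped it, at log2 fold changes of −0.30 and −0.22 with an adjusted p of 1 in both. Kcnd2 was among the genes called higher in MPTP-SU against MPTP-Veh, which uses the same MPTP-SU libraries. Library values were separated for 2 of 78 genes in each antagonist comparison, 2.56%. The share of all genes was 2.15% with the CB1 antagonist and 1.97% with the PPARγ inhibitor. The median SE of a log2 fold change was 0.237 in the midbrain, so changes of moderate size could go without a call.

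In the spinal cord 0 of 76 genes were called in any of the 4 comparisons of groups. Over all 16682 genes the only calls were with the PPARγ inhibitor, 0.012% higher and as many lower. DESeq2 and limma-voom also called 0 potassium channel genes, and at an unadjusted p below 0.05 there were 9 for MPTP-Veh against Con, 4 for MPTP-SU against MPTP-Veh, 3 with the CB1 antagonist and 7 with the PPARγ inhibitor. These are 11.8%, 5.26%, 3.95% and 9.21% of the potassium channel genes, near the 12.8%, 3.81%, 5.49% and 12.1% of all genes. The median SE was 0.09 to 0.091 on the log2 scale, smaller than in the midbrain. The highest group mean of a gene exceeded its lowest by a median of 1.14-fold in the spinal cord and 1.49-fold in the midbrain. This ratio was above 1.5 for 5 of 76 genes in the spinal cord and 36 of 78 in the midbrain. For most of the latter, MPTP-Veh was the lowest or the highest group, as in Kcnd2 and Kcnk3. Neither the share over all genes nor the ratio without the midbrain library of MPTP-Veh replicate 4 was computed.

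The genes with the smallest p-values in the spinal cord were low or moved little. In MPTP-Veh against Con they were the microglial leak channel Kcnk13, from 13.5 ± 1.96 to 17.9 ± 1.89 CPM (0.40, adjusted p = 0.225), Kcng1 (0.36, adjusted p = 0.231) and Kcnj13, from 1.10 ± 0.410 to 2.30 ± 0.884 CPM (1.05, adjusted p = 0.243). In MPTP-SU against MPTP-Veh they were Kcnj13 (−0.87), Kcnmb1 (0.66) and Kcnk9 (−0.31), all at an adjusted p of 0.999. Kcnk9 measured 366 CPM in MPTP-Veh replicate 3 and 172 to 195 CPM in the other MPTP-Veh libraries. With the CB1 antagonist they were Kcnj11, from 21.1 ± 1.26 to 17.7 ± 0.594 CPM (−0.25), Kcnj13 (0.89) and Kcnj3 (0.11), at 0.899. With the PPARγ inhibitor Kcnj9 went from 16.8 ± 0.826 to 21.1 ± 1.13 CPM without overlap (0.33, SE 0.0871, adjusted p = 0.174), followed by Kcns1 (0.47, adjusted p = 0.235) and Kcnt1 (0.14, adjusted p = 0.249).

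**Figure D5:**
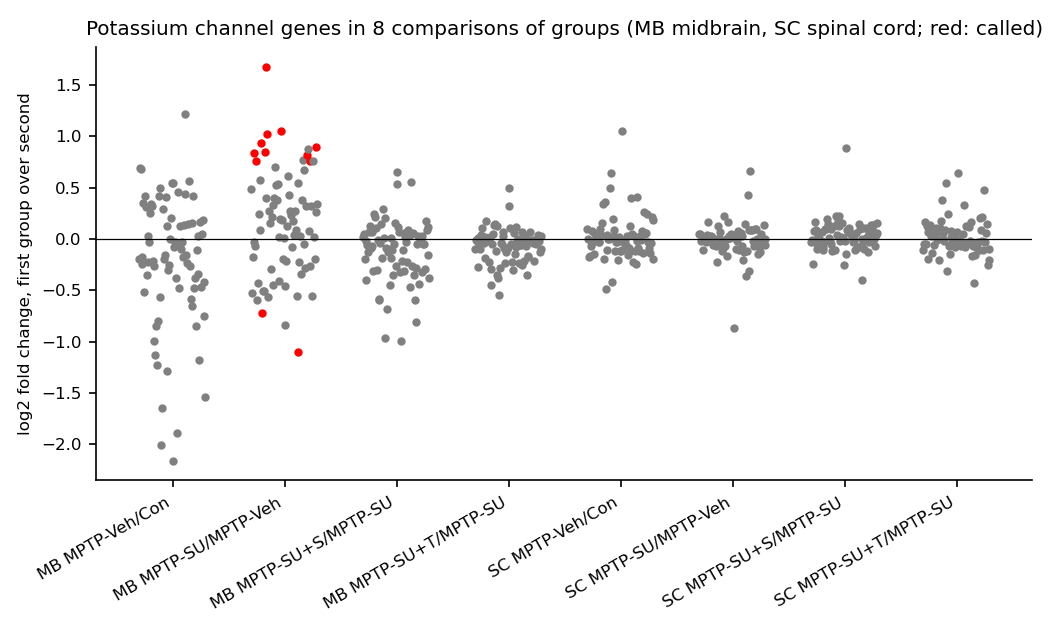
Log2 fold change (y axis) of every tested potassium channel gene in 8 comparisons of groups (x axis), with called genes in red. The 12 called genes are all in the midbrain comparison of MPTP-SU with MPTP-Veh, and the spinal cord values lie closer to 0.

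Whether a comparison differed between the tissues was tested as an interaction over all 40 libraries, with an adjusted p-value below 0.05 as the call. For MPTP-SU against MPTP-Veh 11 of 78 genes differed, 14.1%, against 16.8% of all 17426 genes. They were higher by the midbrain comparison for Kcnd2, Kcnc2, Kcnab1, Kcnip4, Kcnf1, Kcnq3, Kcne4 and Kcna4 and lower for 3 genes, Kcnk3 and Kcnab3 among them. The share was no higher than that of all genes. In the spinal cord Kcnd2 measured 79.4, 82.9, 86.1 and 82.2 CPM in MPTP-Veh and 83.5, 78.3, 73.4 and 81.1 CPM in MPTP-SU, with overlapping groups. Leaving out single libraries gave 6 to 21 genes. Without midbrain MPTP-Veh replicate 4 there were 7, 6 of them among the 11, with Kcnk3 at −0.49 in place of −1.23, and without midbrain MPTP-SU replicate 2, spinal cord MPTP-Veh replicate 4 or spinal cord MPTP-SU replicate 3 or 4 there were 6. Without midbrain MPTP-Veh replicate 1, 2 or 3 there were 17, 20 and 21. For MPTP-Veh against Con 6 genes differed, 7.69%, against 3.12% of all genes: Kcnk3 and Kcnab3 upward in the midbrain relative to the spinal cord, and Kcnj13, Kcnq5, Kcng1 and Kcnh4 downward. There were 0 without midbrain Con replicate 2 or 4, spinal cord Con replicate 1 or 4 or any spinal cord MPTP-Veh library. There were 2 without spinal cord Con replicate 3, 3 without midbrain MPTP-Veh replicate 4, where Kcnk3 fell from 1.42 to 0.71 on the log2 scale, 4 without midbrain Con replicate 1 or 3, 11 without midbrain MPTP-Veh replicate 1 or 2 and 21 without replicate 3. The MPTP-Veh libraries enter both of these interactions. For the fits without single libraries the shares of all genes are not given here, so a change in these counts may not be particular to potassium channel genes.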

How the data were processed

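Polyadenylated RNA of midbrain and spinal cord was sequenced with the CORALL RNA-Seq V2 kit. The deposited files hold estimated counts per gene symbol, one table a library, which the authors made with fastp, STAR and Salmon on GRCm39, as the processing notes name them with no versions; the use of molecular identifiers is not given in the sources used here. The estimated counts were rounded to whole numbers and tested in R 4.3.3 with edgeR 4.0.16 (filterByExpr, TMM, quasi-likelihood test) on all genes, with Benjamini-Hochberg adjusted p-values over all genes tested. All 20 libraries of a tissue entered 1 fit, and all 40 libraries in 10 groups entered the fit for tissue and interaction. A call needed an adjusted p below 0.05 and a fold above 1.5, or the adjusted p alone for interactions. SE is the log2 fold change divided by the square root of F. CPM values used TMM factors over all 40 libraries, and levels per kilobase the longest GENCODE M21 transcript. Alternatives included DESeq2 1.42.0, limma-voom 3.58.1, other scalings and filters, GC and length trends, a replicate block and leaving out each library. The tests were tried on simulated data. No label ties a library to a named mouse, so p-values measure the spread between these libraries. The 95% Wilson interval given for a share covers counting error only.

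Genes named with values were the 12 smallest p-values in each direction for the tissues, the called genes or the 3 smallest p-values for groups, the 5 highest levels per tissue and a list of 25 channels known from dopamine neurons, glia, vessels, axons or pain. Some of these genes and sequences are not reported here. The members and lists were chosen with earlier results of these data known. Same-numbered libraries were not treated as pairs, since in no comparison did every pair of deviations correlate above 0.1. This strict rule cannot decide whether both tissues came from the same mice. The tissue and interaction tests treated all 40 libraries as independent.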

Additional observations from a re-analysis of the deposited data

Results flagged for a closer look

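Single libraries lay far from the other 3 of their group in 6 of the 101 groups of named genes examined, where chance gives about 1 in 20 by the same criterion. Of these, 2 were in the midbrain library of MPTP-Veh replicate 4, with Kcnd2 at 31.8 CPM against 86.8 to 92.8 in the others and Kcnk3 at 112 against 28.2 to 32.7. Kcnk9 measured 366 CPM in spinal cord MPTP-Veh replicate 3 against 172 to 195. Kcnj3 measured 90.6 CPM in spinal cord MPTP-SU+S replicate 1 against 102 to 103. Kcnj14 measured 3.43 CPM in midbrain Con replicate 4 against 1.98 to 2.22, and Kcna1 157 CPM in midbrain Con replicate 3 against 182 to 187.

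Effects that differed between the tissues by the interaction test are given as the midbrain log2 fold change minus that of the spinal cord. For MPTP-Veh against Con they were 1.42 for Kcnk3, 0.45 for Kcnab3, −3.21 for Kcnj13, −1.42 for Kcnq5, −1.22 for Kcng1 and −2.30 for Kcnh4. Without midbrain MPTP-Veh replicate 4 the value of Kcnk3 was 0.71. For MPTP-SU against MPTP-Veh they were 0.91 for Kcnd2, 0.97 for Kcnc2, 0.76 for Kcnab1, 1.05 for Kcnip4, 1.09 for Kcnf1, 0.76 for Kcnq3, 1.74 for Kcne4, 0.81 for Kcna4, −1.23 for Kcnk3 and −0.39 for Kcnab3. Without the same library Kcnk3 was at −0.49 and Kcnd2 at 0.68. Why they differed was not tested.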

How the results depend on the processing

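The tissue comparison, with 39 calls, gave 36 to 39 when single libraries were left out and stayed within 1.5 times in its 12 other settings. The 6 other comparisons of groups with 0 calls kept 0 in every setting. Midbrain MPTP-Veh against Con, with 0, gave 10 with DESeq2 and 0 to 14 when single libraries were left out. Midbrain MPTP-SU against MPTP-Veh, with 12, gave 0 with only the libraries of the groups compared and 1 to 18 when single libraries were left out. The interaction for MPTP-Veh against Con, with 6, gave 0 with library size alone, limma-voom, the replicate block or only the groups compared, 1 without the filter on low counts, 11 with DESeq2, 12 with the GC and length trends removed and 0 to 21 when single libraries were left out. That for MPTP-SU against MPTP-Veh, with 11, gave 5 with library size alone, 0 with only the groups compared and 6 to 21 when single libraries were left out. Kcnk9 in the spinal cord comparison of MPTP-SU with MPTP-Veh lay at −0.31, and between −0.425 and 1e-04 when single libraries were left out, the latter without MPTP-Veh replicate 3. Of 1483 alternatives for 74 results on named genes, 1238 kept direction and call, 238 lost the call, 6 gained one and 1 reversed. Beyond fewer samples or genes in a fit, the cause was not tested. The replicate numbers share no stated animal or batch. With the replicate block midbrain MPTP-SU against MPTP-Veh gave 13 calls, and 10 of 20 libraries correlated best with their own number in the other tissue. The counts of calls in this section are given without the share of all genes called in the same setting. The common dispersion of 0.0512 in the midbrain against 0.0071 in the spinal cord limits which changes could be called there.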
